A study of Mus musculus with 2 samples.

Results

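The genes described here build the sarcomere, the repeating contractile unit of skeletal and heart muscle, or switch its genes on. They were chosen by symbol: 43 genes for striated actins, myosins, troponins, titin and its neighbours, calcium release, muscle energy supply and the myogenic factors. Of the 43, 34 had a row among the 17260 genes of the deposited count table. The 9 without a row (Myh8, Ttn, Myom2, Mybpc1, Mybpc3, Myod1, Myog, Myf5 and Myf6) were not analysed here.

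RNA came from mouse embryonic fibroblasts, connective tissue cells grown out of embryos at day 13.5, on the C57BL/6 strain in DMEM with 10% serum. The first culture was wild type (WT) and the other carried the genotype Ahi1-/-, a loss of a gene whose protein sits at the base of the primary cilium. Each genotype had 1 library, so no spread between cultures can be given, no p-value was computed, and every interval below covers counting error only. The sources used here do not give the embryos per culture, the passage or the targeted part of Ahi1. Ahi1 itself had 410 counts in WT and 370 in the other library and so did not check the label. The second library is therefore called the library labelled Ahi1-/-, and the column heads CON and EXP were read as WT and Ahi1-/-.

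In a sarcomere, myosin heads on thick filaments pull on actin in thin filaments. Calcium released through ryanodine receptors binds troponin C, and the troponin complex of C, I and T subunits then uncovers the actin. Alpha-actinin and other Z-disc proteins anchor the thin filaments, and M-band proteins crosslink the thick ones. Heart, slow and fast muscle use different genes for most of these subunits. Fibroblasts are not a muscle lineage, but they make stress fibres from nonmuscle and smooth muscle actin, and serum response factor (SRF) drives many actin genes through a DNA element called the CArG box.

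Most sarcomere genes were low in both libraries, with Acta1 in the library labelled Ahi1-/- as the exception, and the genes that were called lay in both directions. A gene was called higher or lower when its scaled counts differed by 2-fold or more and the higher count was 50 or more. Only 8 of the 34 genes reached 50 counts in either library. Of these 8, 4 were higher in the library with the Ahi1-/- label (Acta1, Myom1, Ldb3 and Actn3), against 16.0% of all 12075 genes with 50 counts. Another 3 were lower (Tnni2, Tnnt2 and Tnnc1), against 10.3% of those genes, and Mef2c lay within 2-fold. Among the 5101 genes with 50 to 620 counts in the higher library, the range of these members, the shares were 23.1% higher and 11.6% lower. Acta1 alone sets the top of that range, and the next member, Mef2c, had 240 counts in WT. Each called member reached 50 counts only in the library where it was higher. For genes this low the minimum count itself favours calls, so these shares are a description and no conclusion is drawn from them. All 4 higher genes encode actin, Z-disc or M-band proteins, and all 3 lower genes encode troponins.

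**Figure D1:**
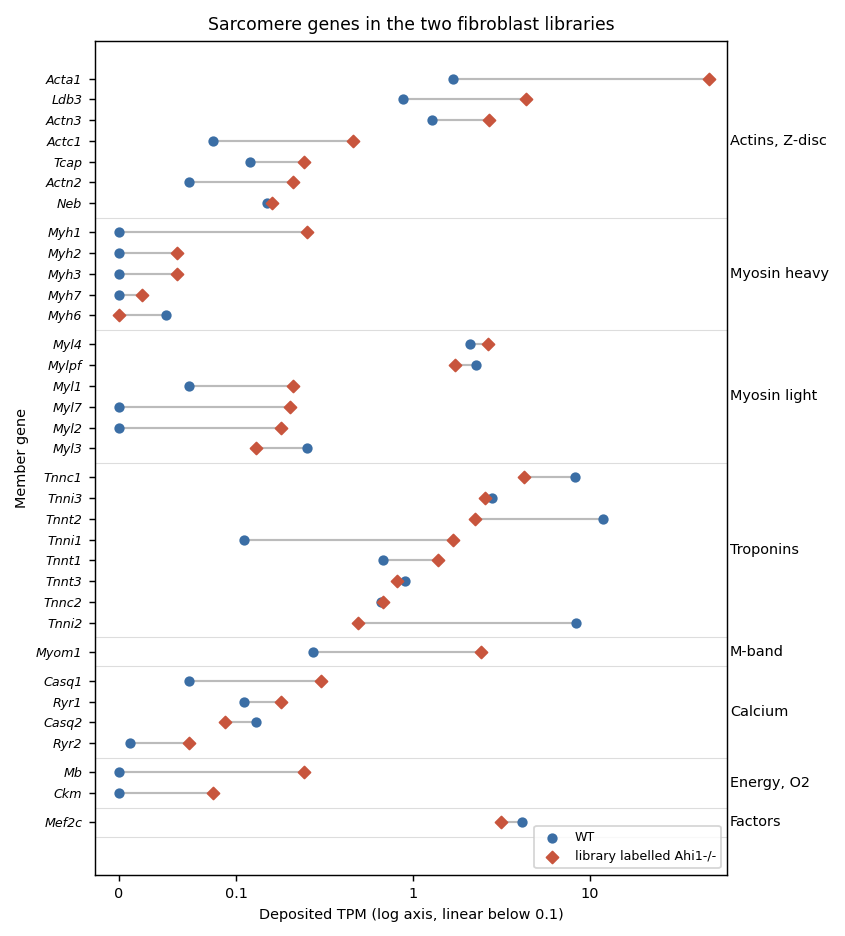
Deposited TPM of the 34 sarcomere genes in WT (circles) and the library labelled Ahi1-/- (diamonds), grouped by role, on an axis that is logarithmic above 0.1 and linear below. Acta1 moves from 1.69 to 47.28 TPM, while Tnnt2 and Tnni2 lie to the left of their WT values and most myosin heavy chains stay near 0.

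The make-up of the sarcomere transcripts differed between the libraries, largely through Acta1. TPM counts transcripts after correction for gene length and depth, so levels of different genes can be set side by side. Summed over the 34 genes it was 47.4 TPM in WT against 81.5 TPM in the library labelled Ahi1-/-. Troponins made up 71.1% of the WT sum and 17.3% of the other. Acta1 alone made up 3.57% of the sum in WT against 58.0% in the library labelled Ahi1-/-. Without Acta1 the sums were 45.7 and 34.2 TPM, lower in the library labelled Ahi1-/-. Troponins gave 33.67 and 14.08 TPM of these, so much of the fall in their share of the full sum came from Acta1.

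**Figure D2:**
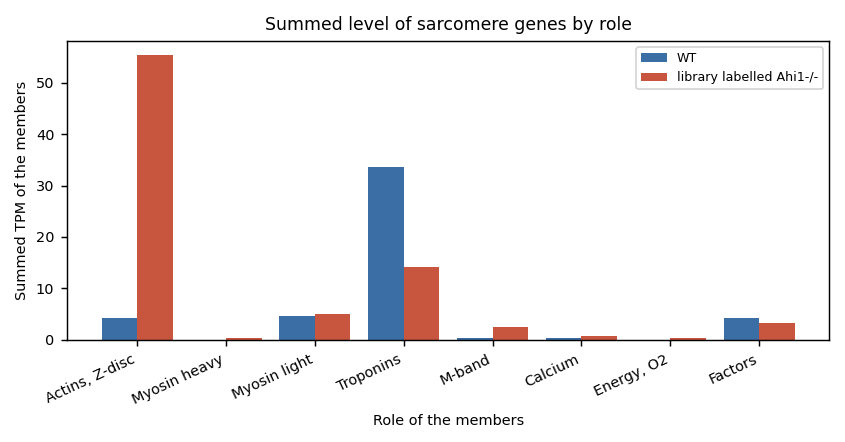
Summed TPM of the sarcomere genes in each role, with 1 bar per library. The actin and Z-disc bar goes from 4.26 to 55.41 TPM and the troponin bar from 33.67 to 14.08 TPM.

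Among thin filament actins, Acta1 was the sarcomere gene with the largest ratio among those called. Acta1 encodes skeletal muscle alpha-actin (Entrez gene 11459, chromosome 8 of GRCm38.p6) and had 23 counts in WT against 620 in the library labelled Ahi1-/-. The ratio was 26.7-fold (log2 4.74, 95% counting interval 4.14 to 5.41), and its TPM moved from percentile 34.7 to percentile 78.8 of all genes. The cardiac alpha-actin gene Actc1 had 1 and 6 counts, too few to compare. The other actins, which are not sarcomere genes, gave Acta2 (smooth muscle) 16.9-fold higher at 6025 and 102889 counts and Actg2 (enteric smooth muscle) 109-fold higher at 57 and 6285 counts. The cytoplasmic actins Actg1 and Actb were 2.84-fold and 1.81-fold higher. Actin transcripts are alike in sequence, and the deposited Acta1 values were fractions of counts (22.65 and 619.97). Of the 1397 stretches of 50 bases in the longest Acta1 transcript of GENCODE M21, 31 also occurred in another gene's transcript, all of them in Gm47692. Whether some of the 31 also occur in Acta2 was not recorded. Of its 1347 stretches of 100 bases, 0 occurred in another gene's transcript. Only exact matches were counted. The sources used here give no read length, so how reads of the actins were shared out was not tested.

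Ldb3, Myom1 and Actn3 were the Z-disc and M-band genes that reached 50 counts, and all were called higher, beside 16.0% of all genes with 50 counts. Each reached 50 counts only in the library labelled Ahi1-/-. Neb, Actn2 and Tcap were too low to be called in either direction, so no direction is given for the class. Ldb3 encodes ZASP, a Z-disc adaptor that binds alpha-actinin, and had 30 counts in WT against 171 in the library labelled Ahi1-/- (5.65-fold higher, log2 2.50, interval 1.93 to 3.11). Myom1 encodes myomesin, the M-band crosslinker, and had 15 and 125 counts (8.26-fold higher, log2 3.05, interval 2.27 to 3.93). Actn3, the alpha-actinin of fast fibres, had 34 and 70 counts, 2.04-fold higher. Its interval of 0.42 to 1.66 on the log2 scale reaches well below the 2-fold line, and under scaling by total counts it was no longer called. Neb, which encodes the thin filament ruler nebulin, had 31 and 32 counts, a log2 ratio of 0.03 with an interval of -0.73 to 0.79. Actn2, the alpha-actinin of heart and all skeletal fibres, had 2 and 6 counts, and the titin cap gene Tcap had 1 and 2, too few for a ratio.

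**Figure D3:**
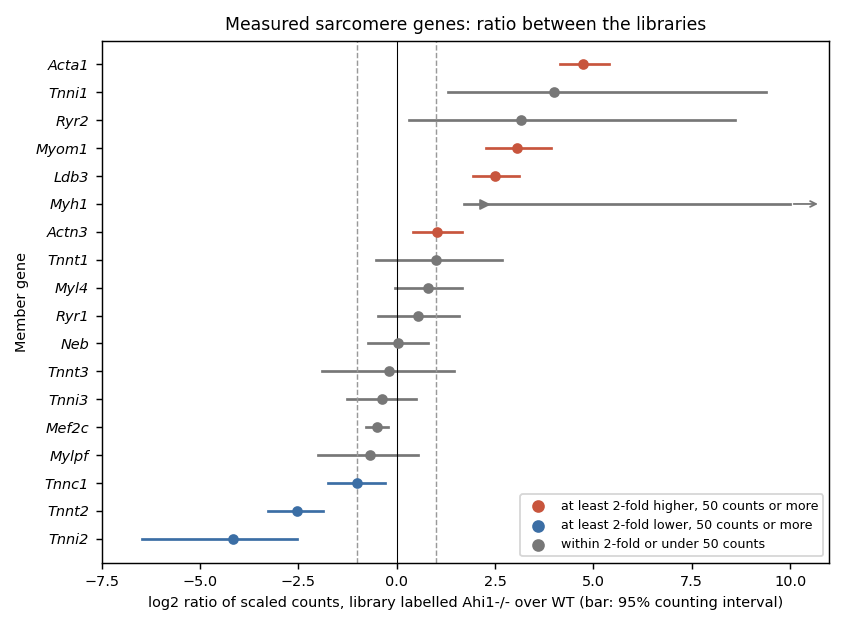
Log2 ratio of scaled counts, library labelled Ahi1-/- over WT, for the 18 sarcomere genes with at least 10 counts over both libraries, with 95% counting intervals (dashed lines: 2-fold; triangle and arrow: 0 counts in WT). Among the called genes, the intervals of Acta1, Myom1, Ldb3 and Actn3 lie wholly to the right of 0 and those of Tnni2, Tnnt2 and Tnnc1 wholly to the left. Of the genes not called, Tnni1, Ryr2 and Myh1 also lie wholly to the right and Mef2c wholly to the left.

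Troponin genes were the most abundant sarcomere genes in WT, and 3 of them were lower in the library labelled Ahi1-/-. Tnnt2, the troponin T of heart and of embryonic skeletal muscle, had 127 counts in WT against 22 in the library labelled Ahi1-/- (5.82-fold lower, log2 -2.54, interval -3.27 to -1.88). Tnni2, the inhibitory subunit of fast muscle, had 53 and 3 counts (log2 -4.16, interval -6.48 to -2.53). Tnnc1, the calcium sensor of heart and slow muscle, had 52 and 26 counts, 2.02-fold lower with a log2 interval of -1.75 to -0.31. Tnnc1 lies on the 2-fold line and was not called with upper-quartile scaling or with TPM. In WT these 3 subunits stood at similar levels per length, with 8.26 TPM for Tnnc1, 8.38 for Tnni2 and 11.88 for Tnnt2. In the library labelled Ahi1-/- they stood at 4.23, 0.49 and 2.24 TPM. These 3 were set side by side because they were called lower, and they belong to different muscle types. The remaining troponins stood lower in WT, with 2.8 TPM for Tnni3 and at most 0.9 TPM for the rest.

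The other troponins did not follow one direction. Tnni1, the inhibitory subunit of slow muscle, had 1 count in WT against 16 in the library labelled Ahi1-/-. Its log2 ratio of 3.99 had an interval of 1.30 to 9.38, and with 16 counts it was too low for a call. Tnni3, the cardiac inhibitory subunit, had 27 and 21 counts (log2 -0.38, interval -1.27 to 0.50), and Tnnt3, the fast troponin T, had 8 and 7 (log2 -0.21, interval -1.90 to 1.45). The slow troponin T gene Tnnt1 had 6 and 12 counts (log2 0.99, interval -0.54 to 2.69), and the fast troponin C gene Tnnc2 had 4 and 4. For Tnni3, Tnnt3 and Tnnt1 the interval held 0, so no difference between the libraries was detectable at this depth.

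Troponin I and T genes lie in close couples in the mouse genome, so the couples are given side by side. On chromosome 1, Tnni1 and Tnnt2 are separated by 1 gene of the table, Lad1. Tnni1 had 1 and 16 counts, Lad1 29 and 33, and Tnnt2 127 and 22, so the genes at the ends lay on opposite sides of 0 with intervals clear of it. On the other side of Tnnt2, Pkp1, which encodes the desmosomal protein plakophilin 1, had 204 and 16 counts (12.9-fold lower). On chromosome 7, Tnni2 and Tnnt3 flank Lsp1, an actin-binding protein gene known from leukocytes, which had 115 and 2576 counts (22.2-fold higher) between a Tnni2 that was lower and a Tnnt3 with 8 and 7 counts. Beyond Tnnt3 lie Mrpl23 (511 and 545 counts) and the imprinted growth factor gene Igf2 (879 and 15471 counts). The third couple, Tnnt1 and Tnni3 on chromosome 7, had intervals that held 0 for both genes. The gene next to Tnnc1 on chromosome 14, Sema3g, was 3.62-fold lower (79 and 22 counts), and Nisch on its other side was 1.25-fold lower.

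The 250 bases before the annotated start are shown for the called genes with a RefSeq promoter window, since both directions can be compared there. They are from RefSeq on build GRCm38.p6, 5′ to 3′ on the gene's strand, and the most upstream start was taken where a gene has several. Capitals mark a CArG box, the SRF element, or an M-CAT motif (CATTCC on either strand), the element bound by TEAD factors.
Acta1, chr8:123894776-123895025, minus strand: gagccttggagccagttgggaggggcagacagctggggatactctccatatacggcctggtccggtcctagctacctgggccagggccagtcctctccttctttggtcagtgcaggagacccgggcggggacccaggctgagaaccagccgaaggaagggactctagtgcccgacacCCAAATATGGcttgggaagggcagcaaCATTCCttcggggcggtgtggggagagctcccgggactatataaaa
Ldb3, chr14:34588682-34588931, minus strand: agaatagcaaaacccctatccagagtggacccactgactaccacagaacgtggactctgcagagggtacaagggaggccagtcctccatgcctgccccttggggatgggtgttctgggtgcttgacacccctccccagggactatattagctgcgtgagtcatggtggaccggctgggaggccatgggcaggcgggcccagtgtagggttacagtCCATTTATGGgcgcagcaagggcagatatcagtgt
Myom1, chr17:71019307-71019556, plus strand: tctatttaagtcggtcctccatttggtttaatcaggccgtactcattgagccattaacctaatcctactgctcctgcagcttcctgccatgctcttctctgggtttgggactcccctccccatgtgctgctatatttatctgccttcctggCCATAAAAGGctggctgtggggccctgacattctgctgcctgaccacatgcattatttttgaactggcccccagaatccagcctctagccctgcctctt
Tnnt2, chr1:135836084-135836333, plus strand: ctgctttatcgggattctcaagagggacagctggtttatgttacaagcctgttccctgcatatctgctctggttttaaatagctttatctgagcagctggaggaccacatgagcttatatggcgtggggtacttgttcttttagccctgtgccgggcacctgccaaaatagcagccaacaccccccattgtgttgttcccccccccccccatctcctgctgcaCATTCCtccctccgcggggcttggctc
Tnnc1, chr14:31208062-31208311, plus strand: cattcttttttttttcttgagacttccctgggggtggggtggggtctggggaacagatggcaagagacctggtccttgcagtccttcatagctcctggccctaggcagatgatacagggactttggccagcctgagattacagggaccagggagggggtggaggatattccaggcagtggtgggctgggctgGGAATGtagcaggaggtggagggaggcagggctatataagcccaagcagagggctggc
Among the 18 sarcomere genes with at least 10 counts, 14 had a window, and Actn3, Neb, Tnni2 and Tnnt3 had none. A CArG box was found in 3 of the 14, namely Acta1, Ldb3 and Myom1, while 1.47% of all 32851 windows hold one. These 3 are the higher genes that had a window. Its first base lay 73 bases before the start in Acta1, 35 in Ldb3 and 99 in Myom1. An M-CAT motif was found in 5 of the 14 (Acta1, Myh1, Mef2c, Tnnc1 and Tnnt2), against 12.6% of all windows, and so in genes of both directions. It began 46 bases before the start in Acta1, 27 in Tnnt2 and, on the other strand, 58 in Tnnc1. A MEF2 motif was found in 1 of the 14, Myh1 (1.69% of all windows), and an E-box (CANNTG, the letters bound by myogenic factors) in 10 of the 14 against 66.2% of all windows. The 14 were counted as genes with the motif in any of their windows, while these percentages count single windows. Counted by gene, 1.4% of 9666 genes with at least 50 counts and a window held a CArG box and 12.7% an M-CAT motif. No overlap between motifs was removed. These are letter matches found after the values were known, and binding was not measured.

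Myosin heavy chain genes of striated muscle were at or near 0 counts, apart from Myh1. Of 5 heavy chain genes, 4 had 0 counts in WT, and their sum over the group was 2 counts in WT against 20 in the library labelled Ahi1-/-. Myh1, a heavy chain of fast fibres, accounted for 14 of the 20 counts and had 0 in WT, at least 4.63-fold higher with the WT library set to a floor of 3 counts. The counting interval of that ratio reaches down to 3.29-fold. Of the 6032 stretches of 50 bases in the longest Myh1 transcript, 26.7% also occurred in other genes, mostly in Myh2, and of its stretches of 100 bases 9.73% did. The read length is unknown, and the deposited Myh1 value was not whole, so its count is uncertain. Myh2 (fast), Myh3 (embryonic) and Myh7 (slow and cardiac) had 2, 3 and 1 counts in the library labelled Ahi1-/- and 0 in WT. The atrial heavy chain gene Myh6 had 2 counts in WT and 0 in the other library.

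Of the 6 light chain genes, 2 reached 10 counts and neither differed detectably. Myl4, the essential light chain of atrium and embryonic muscle, had 20 counts in WT against 35 in the library labelled Ahi1-/- (log2 0.79, interval -0.04 to 1.66). Mylpf, the regulatory light chain of fast fibres, had 16 and 10 counts (log2 -0.69, interval -1.99 to 0.54). Myl1, the essential light chain of fast fibres, had 1 and 5 counts. The ventricular genes Myl2 and Myl3 had 0 and 2 counts in WT and 1 and 1 in the library labelled Ahi1-/-, and the atrial Myl7 had 0 and 1. At 2.09 and 2.28 TPM in WT, Myl4 and Mylpf stood below Tnnc1, Tnni2 and Tnnt2.

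Calcium release genes were low, and 1 of the 4 gave an interval clear of 0. Ryr2, the release channel of heart muscle, had 1 count in WT against 9 in the library labelled Ahi1-/- (log2 3.16, interval 0.31 to 8.61), with 0.01 and 0.06 TPM. Ryr1, the channel of skeletal muscle, had 15 and 22 counts (log2 0.54, interval -0.47 to 1.59). The calcium store proteins of skeletal and heart muscle, Casq1 and Casq2, had 1 and 5 and 3 and 2 counts. Markers of mature muscle energy supply were at the floor: the muscle creatine kinase gene Ckm had 0 and 1 counts and the myoglobin gene Mb 0 and 2. A count of 0 allows up to 3 counts, or 0.151 CPM (scaled counts per depth) in WT.

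Of the myogenic factors, Mef2c alone had a row. It encodes a MADS-box factor that drives muscle genes together with the MyoD family and also acts outside muscle. It had 240 counts in WT against 171 in the library labelled Ahi1-/-, 1.42-fold lower (log2 -0.50, interval -0.79 to -0.21), with 4.14 and 3.16 TPM. The interval is clear of 0 but stays inside 2-fold. The 4 neighbouring genes of the table (Mblac2, Cetn3, Tmem161b and Ccnh) had log2 ratios of -0.52, -0.65, -0.72 and -0.27, the same side as Mef2c.

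Taking the 18 genes with at least 10 counts, 11 ratios lay above 0 and 7 below, with a median log2 ratio of 0.67. The middle genes, Ryr1 and Myl4, had counting intervals that together span -0.47 to 1.66, which is not an interval of the median. The median was 0.03 over the genes whose deposited counts were whole. That restriction was chosen after seeing the data and leaves out Acta1, Actn3, Myh1, Myl4 and Mylpf. A shift of the group was not tested and none is claimed. Over all 14485 genes with at least 10 counts the median was -0.01. The other 16 genes had at most 4 counts in WT against 6 in the library labelled Ahi1-/-. They summed to 17 and 42 counts, with 12 of 16 genes (75.0%) at more counts in the library labelled Ahi1-/- and 3 at fewer. Of all 2775 genes under 10 counts, 51.2% had more counts there and 38.0% fewer. By isoform, the 15 genes of heart and slow muscle (14 with a row) gave 2 lower and 0 higher among 2 with 50 counts, and their sum was 26.3 TPM in WT and 15.9 TPM in the other library. The 13 fast and adult skeletal genes gave 2 higher and 1 lower among 3, and summed to 15.6 and 54.9 TPM, or 13.9 and 7.63 TPM without Acta1. Fast Tnni2 and cardiac Tnnt2 were both among the lower genes.

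**Figure D4:**
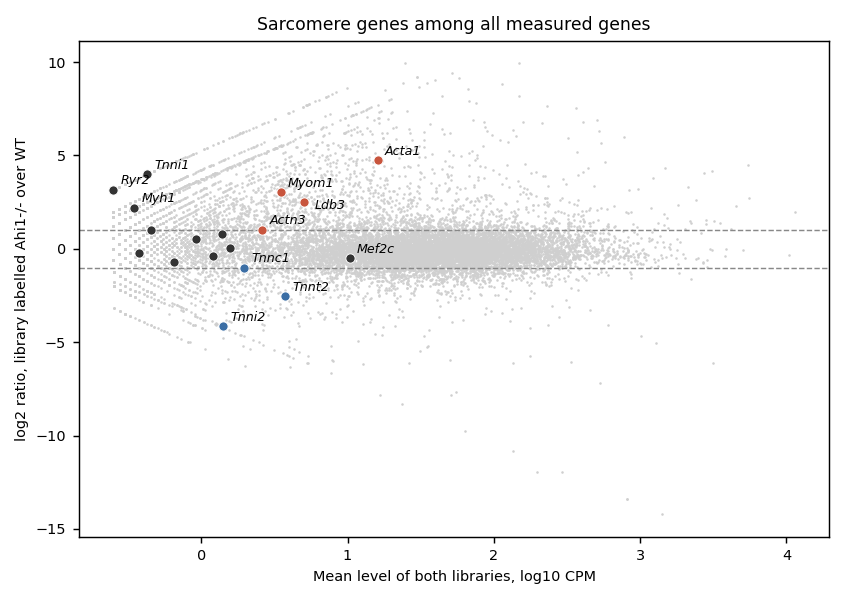
Log2 ratio (library labelled Ahi1-/- over WT) against the mean level in CPM, on a log10 axis, for all genes with at least 10 counts (grey) and the 18 sarcomere genes (coloured where called, dark otherwise). All sarcomere genes except Acta1 and Mef2c lie below a mean of 10 CPM, where the grey points spread widely.

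Chromosomes differed in their median ratio, and 3 of the 4 higher genes lie on chromosomes with a low one. The median log2 ratio of genes with 50 counts was -0.40 on chromosome 8 (Acta1), -0.66 on chromosome 19 (Actn3) and -0.32 on chromosome 17 (Myom1), and 0.04 on chromosome 14 (Ldb3 and Tnnc1). For the lower genes it was 0.28 on chromosome 1 (Tnnt2) and 0.21 on chromosome 7 (Tnni2). With the chromosome median subtracted the counts stayed at 4 higher and 3 lower, and Actn3 stood at 1.69 instead of 1.03.

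The authors' second deposited table, in FPKM, lists 3872 genes, all at least 2-fold apart where both values were above 0. It holds 7 of the sarcomere genes: Acta1 (0.83 and 20.77 FPKM in WT and the library labelled Ahi1-/-), Ldb3 (0.43 and 1.91), Myom1 (0.13 and 1.07), Tnnt2 (5.84 and 0.99), Tnni2 (4.12 and 0.21), Tnni1 (0.05 and 0.74) and Myh1 (0 and 0.11). Actn3 and Tnnc1, the genes on the 2-fold line, are not in it. The directions are the same as in the counts, which come from the same libraries.

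Related muscle, cytoskeletal and transcription factor genes outside the 43 were counted in the same way. Over 7 related lists with 149 genes, 125 had a row and 71 reached 50 counts. Of the 71, 35 (49.3%) were called higher and 5 (7.04%) lower, beside 16.0% and 10.3% of all genes. Among genes with 50 counts up to the highest sarcomere gene, the shares were 23.1% and 11.6%. Some higher members, such as Hand2, Jph2 and Dmd, reached 50 counts only in the library labelled Ahi1-/-, while others, such as Des and Tpm1, did in both. Shares among genes matched in level to the 71 were not computed. The lists were chosen with earlier results of these data known, so the shares are a description.

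Z-disc and cytoskeletal linkers gave 10 higher and 0 lower among 15. The leading members were Cap2, a regulator of actin filaments in muscle (5 and 436 counts, 86.4-fold higher), the intermediate filament gene Des (84 and 1240, 14.6-fold), the ubiquitin ligase gene Fbxo32 (194 and 1309, 6.69-fold) and Nexn, an F-actin binding Z-disc protein (212 and 1427, 6.67-fold). Of its Z-disc genes known from striated muscle, Myot had 0 and 5 counts, Myoz2 2 and 1 and Nrap 1 and 3. Among the 4 tropomyosins, which lie along actin filaments in all cells, Tpm2 was 5.62-fold (1940 and 11010 counts) and Tpm1 4.61-fold higher (8405 and 39115), and 0 were lower.

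Among 12 other calcium handling genes with 50 counts, 3 were higher and 1 lower. The junctophilins tie the surface membrane to the calcium store: Jph2 had 1 and 988 counts (log2 9.94, interval 7.45 to 15.24) and Jph1 had 1 and 84 (log2 6.38, interval 3.86 to 11.70). The L-type calcium channel gene Cacna1c was 2.42-fold higher (1059 and 2591 counts), and Srl, the sarcalumenin gene, 2.47-fold lower (250 and 102). Jph2 thus stood at 26.15 TPM in the library labelled Ahi1-/-, where Ryr1 and Ryr2, the channels it lies beside in muscle, stood at 0.18 and 0.06 TPM.

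Genes of myoblasts, the muscle membrane and the neuromuscular junction gave 6 higher and 1 lower among 12. Dmd (dystrophin) had 1 and 397 counts (log2 8.62, interval 6.13 to 13.93), Lama2, a laminin chain of muscle basement membrane, was 61.99-fold higher (11 and 688 counts), the integrin gene Itga7 4.37-fold (54 and 238) and the acetylcholine receptor gene Chrnb1 3.02-fold (23 and 70). The cardiac factor list gave 3 higher and 0 lower among 4. Hand2, which also patterns limb and face, had 0 and 383 counts (at least 126.5-fold higher with WT set to the floor of 3 counts, with a counting interval that reaches down to 102-fold), Tbx5 5 and 241 (47.8-fold) and Gata6 8 and 180 (22.3-fold). The cardiac peptide genes Nppa and Nppb had 0 counts in WT and 4 and 9 in the library labelled Ahi1-/-, and Nkx2-5 had 7 and 3.

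The list of co-factors and inhibitors of muscle transcription, which also holds the growth factor gene Igf1, gave 7 higher and 2 lower among 18. Fhl1, a LIM protein of muscle, was 27.4-fold higher (103 and 2848 counts), Igf1 7.02-fold (36 and 255) and Vgll3, a partner of TEAD factors, 5.09-fold (1201 and 6171), while the inhibitor of bHLH factors Id2 was 4.56-fold lower (1655 and 366). Tead1 was 2.91-fold higher, and Srf itself lay within 2-fold at 1.80-fold higher (1362 and 2478 counts). The muscle energy list gave 4 higher and 1 lower, the phosphofructokinase gene Pfkm, among 6. Fabp3 was 12.8-fold (13 and 168 counts), the mitochondrial creatine kinase gene Ckmt1 3.42-fold (53 and 183), Ckb 2.61-fold and Ak1 2.60-fold higher.

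**Figure D5:**
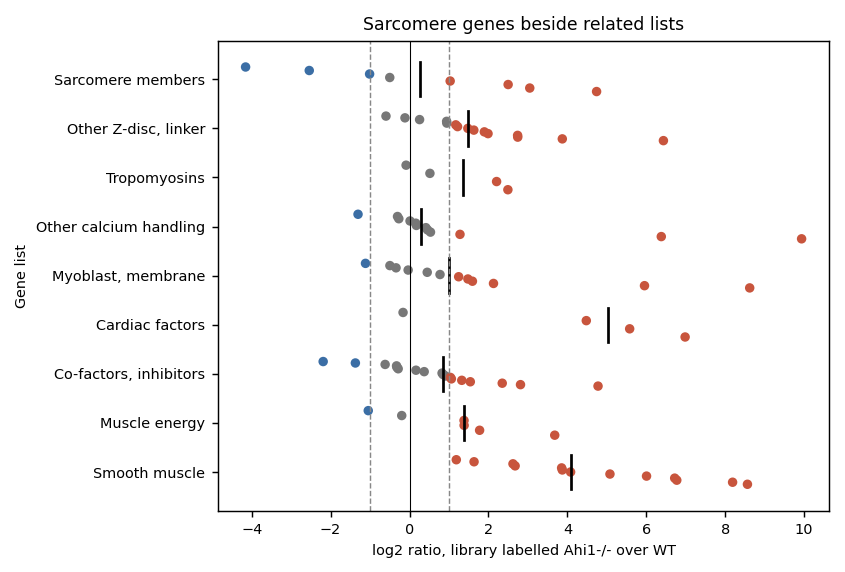
Log2 ratio (library labelled Ahi1-/- over WT) of each gene that reached 50 counts, 1 point per gene, for the sarcomere genes, the 7 related lists and the smooth muscle list (black bar: median; dashed lines: 2-fold; red higher, blue lower). The sarcomere genes split to both sides, while all 13 smooth muscle genes lie above 1.

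Markers of other cell types moved between the libraries beside these results. Smooth muscle and myofibroblast markers were higher for 13 of 13 genes with 50 counts, and their sum over 14 genes went from 801 to 11065 TPM with none at 0. The sarcomere genes summed to 47.4 and 81.5 TPM beside this. Des is on this list and on the Z-disc list. Fibroblast markers were present in both (11 of 11, 11535 and 23233 TPM, with 8 higher and 1 lower). Cartilage markers were lower for 5 of 6 (966 and 54.9 TPM) and red cell markers for 6 of 6 (1366 and 20.7 TPM). Endothelial markers summed to 24.8 and 14.0 TPM (0 higher and 1 lower of 1, with Tie1 at 0 in the library labelled Ahi1-/-), leukocyte markers to 35.5 and 52.5 TPM (1 and 1 of 4), neural to 51.1 and 122 TPM (3 and 1 of 5) and epithelial to 16.2 and 39.5 TPM (4 and 0 of 4, with Krt5 at 0 in WT). In bulk RNA, fewer cells of a type and less RNA per cell cannot be told apart. Among the defining genes of striated muscle, Ckm, Mb, Myl2, Myl7, Myh1, Myh2, Myh3 and Myh7 had 0 counts in WT. Only Myh6, with 2 counts in WT, had 0 in the other library. All of those at 0 in WT except Myh1 (14 counts) had at most 3 counts there, no more than the floor set for a 0. Zeros were also more frequent in WT over all 17260 genes, at 1234 against 749. So neither presence nor absence of striated muscle cells is read from these zeros. The part of these cell types in the troponin and actin values was not tested.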

How the data were processed

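Expected counts (estimated counts per gene) and TPM, in 1 table of 17260 genes, and FPKM for 3872 genes were deposited by the authors, per the file headers. Build mm8 and the tools RSEM 1.2.12, HISAT2 2.0.4 and Bowtie2 2.2.5 are listed without roles in the submitters' processing notes. The sources used here give no annotation, strand use or filter. The WT library held 19067504 expected counts and the other 20820756. Of the deposited values, 65.1% and 64.4% were whole.

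Expected counts were rounded and scaled by TMM (edgeR 4.0.16, R 4.3.3). The ratio is the library labelled Ahi1-/- over WT, with an exact Clopper-Pearson 95% interval. A library at 0 was set to 3 counts, and no ratio was given where both were at or under 3. Python 3.11.15 with pandas 2.3.3, scipy 1.17.1 and matplotlib 3.10.9 did the rest. The calculation was tested on simulated counts with counting error only. Differences were planted only in genes with more counts than most genes described here. The simulation held no spread between cultures, so it does not show how reliable calls from 1 library per genotype are.

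The sarcomere genes and all gene lists were chosen with earlier results of these data known. All members were named, with up to 4 called members of each related list and the summed levels of 8 cell type lists. Motifs, neighbours, the other actins, Tead1, Srf, Myot, Myoz2, Nrap, Nppa, Nppb and Nkx2-5 were chosen after their values were seen. Names and chromosomes came from RefSeq on GRCm38.p6, not the build of the notes. Alternatives covered scaling (including DESeq2 1.42.0 size factors), TPM, chromosome medians, minimum counts, fold and floor.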

Additional observations from a re-analysis of the deposited data

How the results depend on the processing

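The count of 4 higher sarcomere genes was 11 with no minimum count and 3 with at least 100 counts. It was 2 among genes whose deposited counts were whole in both libraries, where Acta1 and Actn3 drop out by construction. The count of 3 lower genes was 4 with no minimum count and 1 with at least 100 counts, when Tnni2 and Tnnc1 fall under the minimum. The share of all genes called with no minimum count is not given here, so the 11 and 4 have no background. Of all genes under 10 counts, 51.2% had more counts in the library labelled Ahi1-/- and 38.0% fewer. The restriction to whole counts and the use of unrounded counts were chosen after seeing the data. Actn3 and Tnnc1 sit on the 2-fold line: total counts gave 3 higher, and upper-quartile scaling and TPM gave 2 lower each. The median log2 ratio ranged from 0.03 (whole counts only) to 0.89 over its alternatives. No called gene changed sign under the scalings, TPM, chromosome medians or unrounded counts. No paired analysis was possible because each genotype had 1 library, and for the same reason none could be left out. Depth limits the result: 26 of the 34 genes had under 50 counts in both libraries.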

Other observations

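The CArG box letters were also counted before the starts of all genes with at least 50 counts and a RefSeq window, as a description with no test. They occurred for 34 of 1433 genes called higher in the library labelled Ahi1-/- (2.37%), 8 of 978 called lower (0.818%) and 93 of 7255 within 2-fold (1.28%). M-CAT letters occurred for 17.0%, 10.9% and 12.1% of the same groups. Most higher genes held neither a CArG box nor an M-CAT motif in this window.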
